A study of Mus musculus with 6 samples.

Results

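The genes described here are 10 genes of the Notch pathway, namely the receptors *Notch1*, *Notch2* and *Notch3*, the ligands *Jag1*, *Jag2*, *Dll1* and *Dll4*, and the target genes *Hes1*, *Hey1* and *Heyl*. They were chosen by name, as the receptors, ligands and targets of the pathway, and all 10 were found among the 23352 genes measured. Earlier results of these data were known when they were chosen. The counts of members called, given below beside the share of all genes, are therefore descriptive only. Their mRNA was measured by RNA-seq in 6 stromal populations sorted from the omentum, a fold of visceral fat that holds small lymphoid clusters called milky spots, of wild-type C57BL/6 mice. All populations were CD45-, which leaves out blood cells. P1, P2 and P3 carried both CD140a and CD105 on their surface and were separated by the activity of aldehyde dehydrogenase (ALDH), which was high in P1, intermediate in P2 and low in P3. P4 (intermediate ALDH activity) and P5 (low ALDH activity) carried CD140a without CD105. P6 was low in CD140a and had ALDH activity. There was 1 library for each population. The age of the mice, and how many were pooled for a library, are not given in the sources used here.

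Notch receptors are transmembrane proteins that bind Delta-like (DLL) and Jagged (JAG) ligands on neighbouring cells. Ligand binding exposes the receptor to cleavage by ADAM10 and then by γ-secretase, and the released intracellular domain moves to the nucleus, where it joins the DNA-binding protein RBPJ and a Mastermind-like coactivator and turns on *Hes* and *Hey* genes, which encode transcriptional repressors. In spleen and lymph nodes, fibroblastic stromal cells are known to present DLL1 and DLL4 to lymphocytes, and along blood vessels *Notch3* is best known from mural cells.

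Levels are FPKM, fragments scaled by transcript length and by the mapped fragments of the library, so that genes of different length can be compared within a library. Depth was recovered from the spacing of the lowest FPKM values and was estimated at 36969857 reads in P6, the fewest, and 61758307 in P5, the most. The sum of FPKM ran from 384939 in P6 to 407807 in P1, and between 11340 genes in P1 and 12043 in P6 reached 1 FPKM. Each ratio between populations is given with a 95% interval in parentheses, computed from the reads estimated for the gene. With 1 library per population these intervals cover counting error only, no spread between animals or sorts could be measured, and no p-values were computed. A gene was called different between 2 populations when its FPKM differed at least 2-fold and reached at least 1 in the higher of them. In sorted bulk RNA, fewer cells that carry a transcript and less of it per cell cannot be told apart.

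The genes of the surface markers behind the gates followed the labels, whereas *Aldh1a2* followed the ALDH labels only in part. *Eng*, which encodes CD105, had 52.4, 52.2 and 42.6 FPKM in the CD105+ gates P1 to P3, and 0.359, 0.231 and 0.728 FPKM in P4, P5 and P6. *Pdgfra*, which encodes CD140a, had 117 FPKM or more in P1 to P5 and 5.36 FPKM in P6. *Ptprc*, which encodes CD45, did not exceed 0.755 FPKM. *Aldh1a2*, which encodes a retinaldehyde dehydrogenase, had 469, 78.8, 134, 285, 145 and 209 FPKM in P1 to P6. It was thus highest in the ALDH-high gate, but P2 lay below P3, against the order of their ALDH gates. P2 also lay below the ALDH-low gate P5, and far below P4, which was ALDH-intermediate like P2. The 8 fibroblast genes summed to between 8243 FPKM in P5 and 12673 in P1 and were led by *Dcn* in every library. Single fibroblast genes differed more. *Dpt* had 1634, 1389, 986, 650, 264 and 8.70 FPKM in P1 to P6, and *Lum* had 345, 287, 229, 143, 56.4 and 6.19. Both were thus higher in the CD105+ than in the CD105- gates and lowest in P6, whereas *Col1a1* and *Pdpn* were highest in P6. *Col3a1* is listed at 0 in P2 but lies between 2100.2 and 3389.6 FPKM elsewhere, so an exact 0 in these files can be a failed estimate. None of the 10 Notch genes is listed at 0 in any library.

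Transcripts of other cell types differed between the libraries, and their part in the results was not tested. The 9 mesothelial genes found of 10 listed summed to 73.0, 95.5, 148, 933, 757 and 2938 FPKM in P1 to P6. They were led by *Wt1* in P1 to P3 and by *Upk3b*, at 383, 289 and 1139.8 FPKM, in P4, P5 and P6, so that they separate the CD105- gates and P6 from the CD105+ gates. The 8 genes of pancreatic acinar cells summed to 3.29, 187, 19.3, 989, 124 and 1473 FPKM in P1 to P6, led by *Amy2a5* in all but P1. P4 and P6 thus stand apart in acinar transcripts. The 5 adipocyte genes summed to 152 FPKM in P6, led by *Cfd*, and to at most 4.93 FPKM in P1 to P5, with *Lep* listed at 0 in all libraries but P3. Adipocyte transcripts were therefore a mark of P6.

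Endothelial and mural cells are the usual sources of *Dll4* and *Notch3* in a tissue, so their markers are given here. The 12 endothelial genes summed to 2.04, 2.91, 4.60, 19.2, 12.2 and 113 FPKM in P1 to P6, and *Esam* with *Kdr* made up most of the sum in P4 (15.1 and 3.30 FPKM), P5 (9.55 and 1.46 FPKM) and P6 (62.0 and 46.9 FPKM). The defining gene *Pecam1* had 0.518, 0.370, 0.552, 0.0672, 0.0955 and 0.992 FPKM in P1 to P6 and *Cdh5* 0.119, 0.0898, 0.174, 0.0315, 0.0684 and 0.343, so that both were higher in the CD105+ than in the CD105- gates, opposite to the sum. *Sox17* is listed at 0 in P2 and P6, *Erg* in P6 and *Cldn5* in P4. In P2 and P3, the libraries in which *Dll4* was highest, the most abundant endothelial gene had 0.931 FPKM (*Kdr*) and 1.17 FPKM (*Esam*). The 10 mural genes summed to 120.3, 263, 368, 237, 375 and 133 FPKM in P1 to P6, led everywhere by *Des*, whereas *Rgs5*, a defining pericyte gene, did not exceed 0.553 FPKM. The single mural genes differed in pattern, and *Pdgfrb* (44.8, 76.9, 70.0, 24.6, 23.7 and 8.74 FPKM in P1 to P6) was higher in the CD105+ than in the CD105- gates. None of them is listed at 0. The mural sum was about as high in P5 as in P3. The 7 haematopoietic genes found of 8 listed summed to between 9.81 FPKM in P5 and 41.0 in P6, led by *Lyz2*, with *Cd3e* listed at 0 in P1, P4 and P5. The 8 immediate-early genes summed to between 7483 FPKM in P5 and 8978 in P6 and were led by *Fos* in all libraries but P1, where *Junb* led.

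*Notch2*, *Jag1* and *Hes1* were the abundant receptor, ligand and target in every population. They were the 3 members that reached 1 FPKM in all libraries, and 7 of the 10 members reached it in some library. *Jag2*, *Hey1* and *Heyl* stayed below 1 FPKM in all of them. The spread between the highest and the lowest population ran from 1.83-fold for *Jag1* to 71.4-fold for *Dll4*. The plot of levels by population shows that the abundant receptor and the abundant ligand varied less than the scarcer receptors and the Delta-like ligands.

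**Figure D1:**
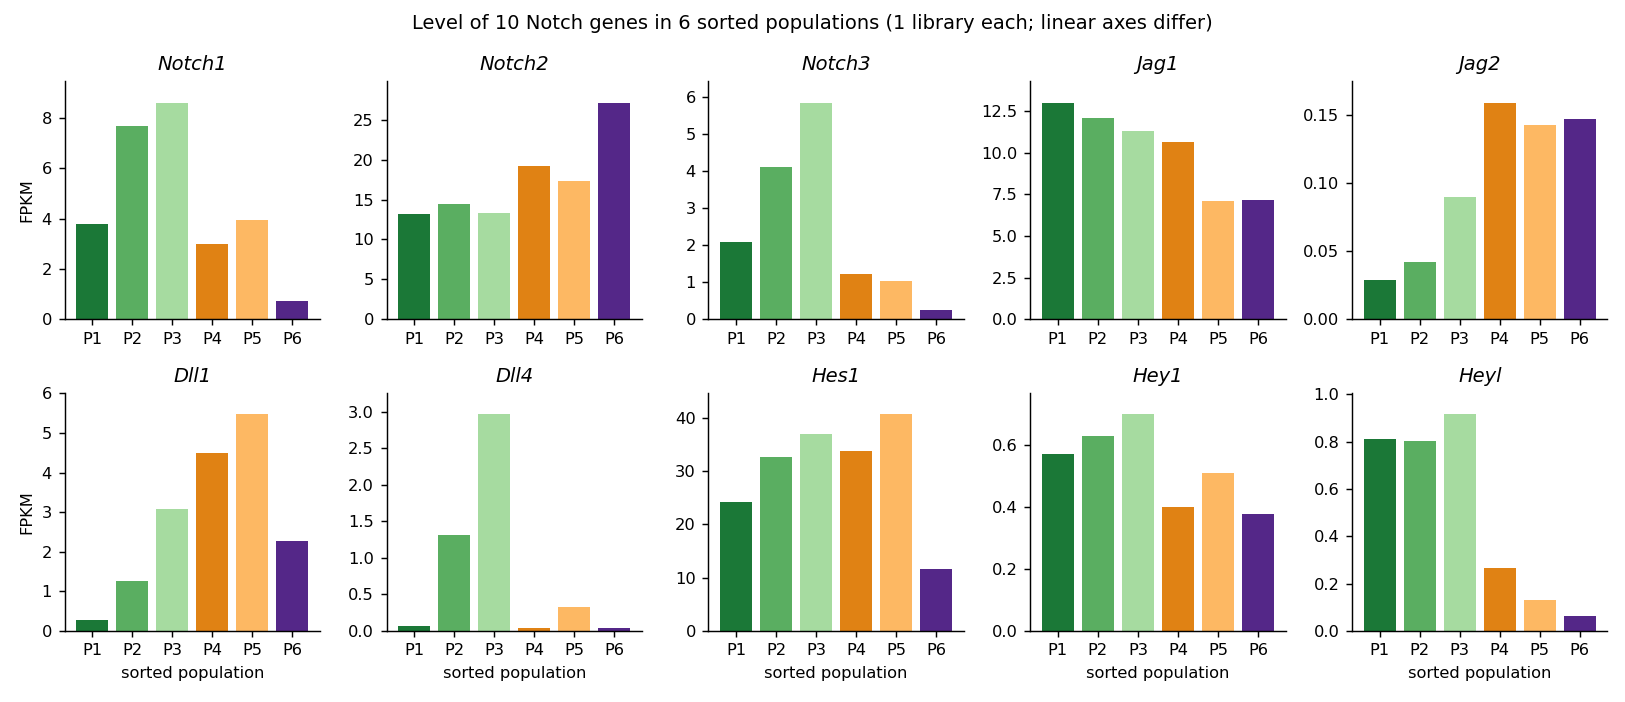
FPKM (y axis, linear and starting at 0, with a range of its own in each panel) of the 10 Notch genes in the 6 sorted populations (x axis), 1 bar per library and no error bars because each population has 1 library. *Notch1* and *Notch3* peak in P3 at 8.62 and 5.84 FPKM, *Dll4* stands out in P2 and P3 at 1.32 and 2.97 FPKM, *Dll1* peaks in P5 at 5.47 FPKM, and *Notch2* peaks in P6 at 27.2 FPKM.

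Promoters are shown for the members called higher in CD105+ cells in both CD105 comparisons (*Notch1*, *Notch3* and *Dll4*) and for *Dll1*, which was lower there. RefSeq promoter windows (GRCm38.p6) were found for 7 of the 10 members. Each sequence is the 250 bases before a transcription start annotated by RefSeq, 5′ to 3′ on the strand of the gene. Capitals mark matches on either strand to the RBPJ core TGGGAA, the GC box GGGCGG, the CCAAT box CCAAT or the TATA box TATANAN, and matches may overlap each other.
*Notch1*, chr2:26503823-26504072, minus strand: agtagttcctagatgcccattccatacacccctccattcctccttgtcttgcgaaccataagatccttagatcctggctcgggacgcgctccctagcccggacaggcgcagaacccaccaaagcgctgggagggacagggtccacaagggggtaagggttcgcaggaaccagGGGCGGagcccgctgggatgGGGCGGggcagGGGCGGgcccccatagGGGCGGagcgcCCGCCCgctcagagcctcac
*Notch3*, chr17:32166891-32167140, minus strand: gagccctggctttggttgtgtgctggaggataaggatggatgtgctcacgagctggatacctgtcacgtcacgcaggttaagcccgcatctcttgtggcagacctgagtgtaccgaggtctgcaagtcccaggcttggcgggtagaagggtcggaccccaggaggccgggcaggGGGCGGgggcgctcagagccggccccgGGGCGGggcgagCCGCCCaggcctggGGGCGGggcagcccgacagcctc
*Dll4*, chr2:119325534-119325783, plus strand: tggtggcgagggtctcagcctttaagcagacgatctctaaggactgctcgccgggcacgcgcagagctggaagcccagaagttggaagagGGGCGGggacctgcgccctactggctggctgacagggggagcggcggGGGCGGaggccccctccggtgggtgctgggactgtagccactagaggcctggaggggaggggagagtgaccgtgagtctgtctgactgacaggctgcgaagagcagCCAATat
*Dll1*, chr17:15376933-15377182, minus strand, the nearer of its 2 windows to the GENCODE gene start: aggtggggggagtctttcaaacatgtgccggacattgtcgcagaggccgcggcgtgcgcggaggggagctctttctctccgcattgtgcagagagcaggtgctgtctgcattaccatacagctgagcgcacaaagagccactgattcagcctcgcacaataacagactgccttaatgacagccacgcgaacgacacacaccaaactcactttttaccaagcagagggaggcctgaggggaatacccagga
The *Notch1* window ends at the start of the principal GENCODE transcript, 12841 bases inside the outer end of the gene, which belongs to another transcript. It holds 5 GC boxes and the *Notch3* window 4. The *Dll4* window holds 2 GC boxes and a CCAAT box next to the start. None of the 4 motifs was found in the *Dll1* window shown, whereas its other window, whose start lies nearer to that of the principal GENCODE transcript (153 bases, against 956 for the window shown), holds 2 CCAAT boxes and 64% G and C. The letters of the RBPJ core are in none of the 4 windows. Among all 32851 RefSeq windows of this length, 32.7% hold a GC box, 33.8% a CCAAT box, 22.5% the TATA box and 21.6% the RBPJ core. G and C make up 66% of the *Notch1* window, 68.8% of that of *Notch3*, 65.6% of that of *Dll4* and 56% of that of *Dll1*, against a median of 52.4% over all windows. Several GC boxes in a window rich in G and C are not particular to *Notch1* and *Notch3*, since *Notch2*, with an opposite pattern, has 72% G and C and 5 GC boxes, and *Jag2* has 87.2% and 5.

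Among the receptors, *Notch1* (chr2:26457903-26516663, minus strand; positions of genes are those of GENCODE M21 on GRCm38) encodes a receptor used in cell fate choices in many tissues. It had 3.80, 7.71, 8.62, 3.01, 3.95 and 0.704 FPKM in P1 to P6. P2 and P3 were thus high, P1, P4 and P5 lay in the middle and P6 was low. The order was P3, P2, P5, P1, P4 and P6, and of these neighbours only P5 and P1 did not differ beyond counting error (ratio P5/P1 1.04, 0.978 to 1.11). P3 was highest and P6 lowest under each of the 4 scalings tried, which were FPKM as deposited, the median of ratios over genes, a common sum of FPKM and division by *Gapdh*.

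*Notch3* (chr17:32120820-32166852, minus strand), the receptor best known from pericytes and smooth muscle, had 2.08, 4.11, 5.84, 1.23, 1.02 and 0.258 FPKM in P1 to P6. All 3 CD105+ populations lay above both CD105- populations, and P6 was lowest. The order of levels was P3, P2, P1, P4, P5 and P6 under all 4 scalings. Every neighbour differed beyond counting error, the closest being P4 and P5 (ratio P4/P5 1.20, 1.06 to 1.36). Of the mural genes, *Pdgfrb* also had its higher levels in the CD105+ gates and its lowest in P6, and *Rgs5* lay between 0.361 and 0.553 FPKM in the CD105+ gates and at most at 0.219 elsewhere. *Des* (191 FPKM in P5 and 198 in P3) and *Myh11* (91.8 FPKM in P5 and 35.1 in P3) did not show this split. *Acta2* (35.0 FPKM), *Tagln* (18.5 FPKM), *Mcam* (1.83 FPKM) and *Cspg4* (1.09 FPKM) were highest in P6, where *Notch3* was lowest. The part of mural cells in the *Notch3* level was not tested.

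*Notch2* (chr3:98013527-98150361, plus strand) encodes a receptor that is best known from marginal zone B cells, which depend on it. It had 13.2, 14.4, 13.3, 19.2, 17.3 and 27.2 FPKM in P1 to P6. Its direction was opposite to that of *Notch1* and *Notch3*, with the highest level in P6, lower levels in the CD105- populations and the lowest in the CD105+ populations. P3 and P1 did not differ beyond counting error (ratio P3/P1 1.01, 0.977 to 1.04). P6 was highest under all 4 scalings, and division by *Gapdh* gave ratios of 1.04 for P2/P4 and 1.12 for P3/P5 in place of 0.751 and 0.768. That division raises the log2 ratios of all genes in a comparison alike. It moved the medians of all genes by 0.47 and 0.53, to 0.39 and 0.44, and *Notch2*, at 0.06 and 0.16, stayed below them.

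Within a library, the share of each receptor does not depend on how libraries are scaled against each other. *Notch2* made up 68.1%, 53.8%, 46.9%, 81.1%, 76.9% and 96.2% of the summed FPKM of the 4 Notch receptors in P1 to P6. *Notch1* and *Notch3* together held their largest part in P3, where their shares were 30.5% and 20.6%, and their smallest in P6, at 2.49% and 0.915%. The fourth receptor gene, *Notch4*, known from endothelium, did not exceed 0.558 FPKM and 2.06% of the sum. The receptor mRNA thus ran from a mixture in P3 to almost only *Notch2* in P6. The summed level was lowest in P1 (19.4 FPKM) and alike in P3 (28.3 FPKM) and P6 (28.2 FPKM).

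Among the ligands, *Jag1* (chr2:137081456-137116644, minus strand), a Jagged ligand carried by many stromal and epithelial cells, had 13.0, 12.1, 11.3, 10.6, 7.11 and 7.17 FPKM in P1 to P6. The level was lower at each step from P1 to P4 and lowest in P5 and P6, which did not differ beyond counting error (ratio P6/P5 1.01, 0.944 to 1.08). This order, P1, P2, P3, P4, P6 and P5, was found under all 4 scalings. *Jag2* (chr12:112907819-112929776, minus strand), the other Jagged ligand, lay between 0.0291 FPKM in P1 and 0.159 in P4, on 8 to 46 estimated reads. At that depth the only neighbours in its order that differed were P3 and P2 (ratio P3/P2 2.14, 1.05 to 4.46), while populations farther apart also differed, such as P1 and P4 (ratio P1/P4 0.183, 0.0778 to 0.408).

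*Dll1* (chr17:15367354-15376872, minus strand), the ligand by which splenic stroma supports marginal zone B cells, had 0.284, 1.25, 3.09, 4.49, 5.47 and 2.28 FPKM in P1 to P6. It was lowest in the ALDH-high gate, rose as ALDH activity fell within the CD105+ gates, and was highest in the CD105- gates. All neighbours in its order, P5, P4, P3, P6, P2 and P1, differed beyond counting error, and the order was the same under all 4 scalings. An annotated noncoding RNA on the opposite strand, *A930024N18Rik*, covers 20.5% of the exon bases of *Dll1*. It has no value under this symbol in the deposited tables, and how reads of the shared stretch were counted is not given in the sources used here.

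*Dll4* (chr2:119325784-119335962, plus strand), the ligand of sprouting endothelium and of lymph node stroma, had 0.0633, 1.32, 2.97, 0.0420, 0.323 and 0.0416 FPKM in P1 to P6. These levels rest on 12, 289, 639, 9, 71 and 5 estimated reads. *Dll4* was thus found in the ALDH-intermediate and ALDH-low gates of the CD105+ cells, at a lower level in P5, and at a level near the floor in P1, P4 and P6, which did not differ from each other beyond counting error (ratio P1/P4 1.51, 0.566 to 3.93, ratio P4/P6 1.01, 0.342 to 4.31, and ratio P6/P1 0.657, 0.166 to 1.84). P3 and P2 differed (ratio P3/P2 2.25, 1.95 to 2.59), as did P2 and P5 (ratio P2/P5 4.08, 3.13 to 5.36). A noncoding transcript on the opposite strand, *Gm14207*, looked up because it overlaps 5.56% of the exon bases of *Dll4*, had 0.541 FPKM in P2, 0.975 in P3 and 0.0416 in P5 and is listed at 0 in the other libraries. Whether reads were counted by strand is not given in the sources used here, so reads in the stretch shared by both genes cannot be told apart. Noncoding genes on the opposite strand also overlap exon bases of *Notch1* (7.50% and 2.91%) and *Notch3* (6.03%), and a gene of unconfirmed type on the same strand overlaps those of *Notch2* (5.02%).

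*Jag1* made up 97.2%, 82.2%, 64.7%, 69.3%, 54.4% and 74.4% of the summed FPKM of the 5 canonical ligands in P1 to P6. *Dll1* made up 2.12%, 8.53%, 17.7%, 29.2%, 41.9% and 23.6% in P1 to P6. The Delta-like part was thus larger at lower ALDH activity on both sides of the CD105 gate. It was shared about equally by *Dll1* and *Dll4* in P2 and P3, where *Dll4* made up 8.98% and 17.0%, and was nearly all *Dll1* in P4 and P5, where *Dll4* made up 0.273% and 2.47%. *Jag2* did not exceed 1.53% and *Dll3* 0.189% in any library.

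**Figure D2:**
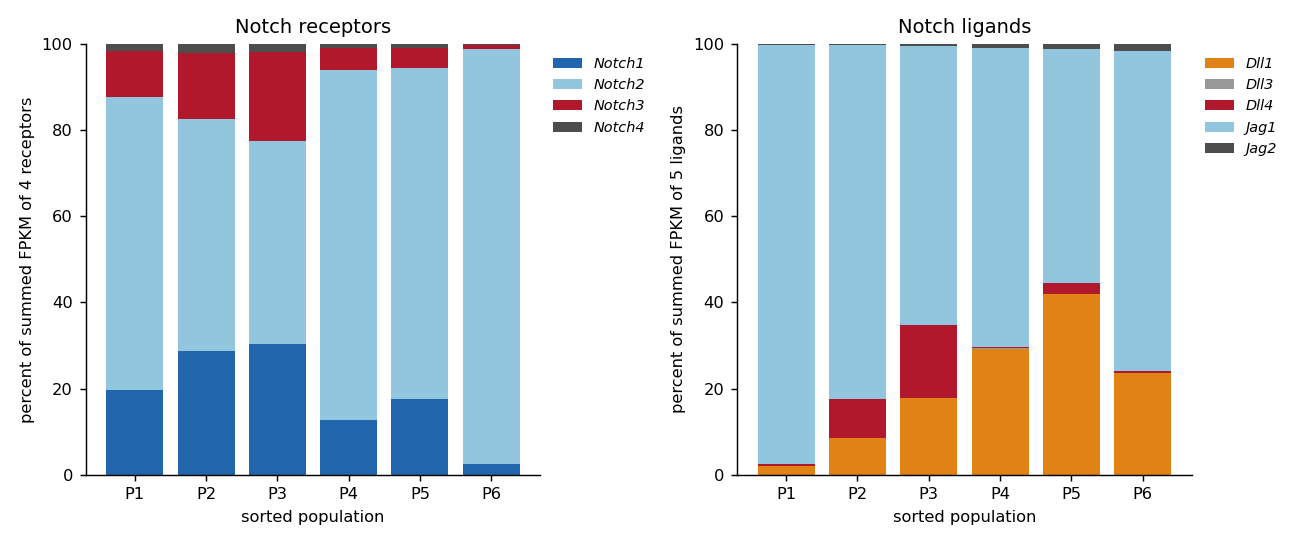
Percent of the summed FPKM of 4 Notch receptors (left) and 5 canonical ligands (right) held by each gene (stacked colours) in the 6 sorted populations (x axis), 1 library each. *Notch2* holds from 46.9% of receptor mRNA in P3 to 96.2% in P6, and *Dll1* holds from 2.12% of ligand mRNA in P1 to 41.9% in P5.

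Of the target genes, *Hes1* (chr16:30064384-30067796, plus strand), a repressor that many signals besides Notch can induce, had 24.2, 32.8, 37.0, 33.9, 40.7 and 11.7 FPKM in P1 to P6. P2 to P5 lay close together, P1 was lower and P6 was lowest. In the order P5, P3, P4, P2, P1 and P6, only P4 and P2 did not differ beyond counting error (ratio P4/P2 1.03, 0.978 to 1.09). P6 was lowest under all 4 scalings. After division by *Gapdh*, the highest population was P3 in place of P5, and P4 came to lie below P1. *Hes1* made up between 94.6% and 98.5% of the summed FPKM of the 3 target genes.

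*Hey1* (chr3:8663359-8667256, minus strand) and *Heyl* (chr4:123233556-123249875, plus strand) encode related repressors of the Hairy/E(spl) family. *Hey1* lay between 0.378 FPKM in P6 and 0.698 in P3, and none of the 5 pairs of neighbours in its order differed beyond counting error, while populations farther apart did, such as P3 and P4 (ratio P3/P4 1.75, 1.23 to 2.50). *Heyl*, known as a target in vascular smooth muscle, had 0.812, 0.803, 0.916, 0.268, 0.131 and 0.0624 FPKM in P1 to P6. Its 3 CD105+ levels did not differ from each other beyond counting error, and all of them lay above the CD105- populations, with P6 lowest. This split by CD105 is the one seen for *Notch3*, at levels below the minimum of 1 FPKM. Other scarce target genes of the pathway did not all share it. *Nrarp* ran the opposite way, with 0.0394, 0.0477, 0.0624, 0.488, 0.225 and 0.615 FPKM in P1 to P6. *Hes3* was higher in the CD105+ gates, at 0.0460, 0.179 and 0.0809 FPKM in P1 to P3. It had 0.0314 FPKM in P4 and 0.0199 in P5 and is listed at 0 in P6.

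Neighbouring gates that differ in a single marker were compared in 5 pairs. The first is between high and intermediate ALDH activity in CD105+ cells. *Notch1*, *Dll1* and *Dll4* were higher in P2 than in P1, which is 3 of the 7 members with at least 1 FPKM in P1 or P2, and none was higher in P1. Over all 11803 genes of that level, 4.5% were called higher in P2 and 1.05% higher in P1. The ratio P1/P2 was 0.492 for *Notch1* (0.466 to 0.520), 0.227 for *Dll1* (0.163 to 0.305) and 0.0480 for *Dll4* (0.0245 to 0.0851). With 0.1 added to each FPKM, the log2 ratio of *Dll4* was -3.12 in place of -4.38. *Notch3* lay just short of the threshold at 0.508 (0.468 to 0.550). *Notch1* and *Notch3* thus lie at the threshold itself, with intervals that reach across it, and the call of *Notch1* was lost with the median of ratios (0.511) and after division by *Gapdh* (0.501), while a common sum of FPKM added *Notch3* (0.496). Between P1 and P3, the high and low ends of the CD105+ gates, both lay past 2-fold (ratio P1/P3 0.440, 0.417 to 0.465, for *Notch1* and 0.357, 0.330 to 0.385, for *Notch3*). *Hes1* was lower in P1 than in P2 by a smaller factor (ratio 0.739, 0.694 to 0.786). *Dll1* and *Dll4* reached 1 FPKM in P2 alone of this pair. Over the 5 members with at least 1 FPKM in both, the median log2 ratio, taken after 0.1 was added to each FPKM, was -0.44, against -0.04 over all genes of that level. Acinar transcripts summed to 3.29 FPKM in P1 and 187 in P2, and mural transcripts to 120.3 and 263 FPKM, and their part was not tested.

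Between intermediate and low ALDH activity in CD105+ cells, both Delta-like ligands were called higher in P3, and no member was higher in P2. The ratio P2/P3 was 0.406 for *Dll1* (0.351 to 0.471) and 0.444 for *Dll4* (0.386 to 0.512). These are 2 of 7 members, where 2.75% of 11980 genes were called higher in P3 and 1.16% higher in P2. *Notch3* was also lower in P2, but less than 2-fold (ratio 0.703, 0.664 to 0.746). All 7 had at least 1 FPKM in both, and their median log2 ratio was -0.18, against -0.03 over all genes. Acinar transcripts summed to 187 FPKM in P2 and 19.3 in P3, and mural transcripts to 263 and 368 FPKM. Endothelial transcripts summed to 2.91 FPKM in P2 and 4.60 in P3, and all endothelial genes but *Kdr* and *Cldn5* were higher in P3. The part of these transcripts was not tested.

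In CD105- cells, the comparison of intermediate with low ALDH activity gave no call among 6 members in either direction, where 4.17% of 12022 genes were called higher in P4 and 1.57% higher in P5. The ratio P4/P5 was 0.763 for *Notch1* (0.715 to 0.813), 0.820 for *Dll1* (0.750 to 0.896) and 1.496 for *Jag1* (1.42 to 1.58). *Dll4* was lower in P4 (ratio 0.130, 0.0587 to 0.268), but on 9 and 71 estimated reads and below 1 FPKM on both sides, and *Heyl*, also below 1 FPKM, was higher in P4 (ratio 2.05, 1.34 to 3.17). The median log2 ratio was -0.06 over these 6 members, which all had at least 1 FPKM in both, and -0.04 over all genes. P4 held more acinar transcripts than P5 (989 and 124 FPKM) and fewer mural transcripts (237 and 375 FPKM). Endothelial (19.2 and 12.2 FPKM) and haematopoietic transcripts (14.2 and 9.81 FPKM) were also more abundant in P4. The part of these transcripts in these ratios was not tested.

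The comparison of CD105+ with CD105- cells at intermediate ALDH activity split the members. *Notch1*, *Notch3* and *Dll4* were called higher in P2, which is 3 of 7 members against 5.1% of 12181 genes, and *Dll1* was called higher in P4, against 7.94% of these genes. The ratio P2/P4 was 2.56 for *Notch1* (2.42 to 2.71), 3.35 for *Notch3* (3.05 to 3.68), 31.4 for *Dll4* (15.8 to 67.3) and 0.279 for *Dll1* (0.243 to 0.321). With 0.1 added to each FPKM, the log2 ratio of *Dll4* was 3.32 in place of 4.97. *Hes1* did not differ beyond counting error (0.968, 0.916 to 1.02). At levels below 1 FPKM, *Heyl* was higher in P2 (ratio 3.0, 2.28 to 4.0) and *Jag2* was lower in P2 (ratio 0.264, 0.133 to 0.505). *Dll4* reached 1 FPKM in P2 alone of this pair, and over the 6 members that did so in both the median log2 ratio was 0.07, against -0.08 over all genes.

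At low ALDH activity, the same 3 members, *Notch1*, *Notch3* and *Dll4*, were called higher in the CD105+ cells. The ratio P3/P5 was 2.18 for *Notch1* (2.08 to 2.29), 5.72 for *Notch3* (5.19 to 6.30) and 9.18 for *Dll4* (7.16 to 11.9). These 3 of 7 members compare with 7.55% of 12152 genes, and no member was called higher in P5, where 6.5% of genes were. *Dll1* was lower in P3 (ratio 0.564, 0.511 to 0.622) without reaching 2-fold. *Heyl* again lay below 1 FPKM but was higher in P3 (ratio 7.01, 4.90 to 10.3). With a common sum of FPKM, which raises all levels and so brings more genes past the minimum, *Heyl* was called in both CD105 comparisons. *Dll4* reached 1 FPKM in P3 alone of this pair, and over the 6 members that did so in both the median log2 ratio was 0.26, against -0.09 over all genes. Acinar and mesothelial transcripts were both lower in the CD105+ library of each CD105 comparison. The acinar sums were 187 FPKM in P2 and 989 in P4, and 19.3 in P3 and 124 in P5, and the mesothelial sums were 95.5 FPKM in P2 and 933 in P4, and 148 in P3 and 757 in P5. Haematopoietic and adipocyte transcripts were higher in the CD105+ library, at 28.4 FPKM in P2 and 14.2 in P4, and 26.6 in P3 and 9.81 in P5 for the former, and 4.93 and 1.04, and 3.55 and 0.699 for the latter. The endothelial genes *Pecam1* and *Cdh5* and the fibroblast genes *Dpt* and *Lum* were also higher there, while the fibroblast gene *Pdpn* was lower. The endothelial sum was lower there, at 2.91 FPKM in P2 and 19.2 in P4, and 4.60 in P3 and 12.2 in P5. Mural sums were close, at 263 FPKM in P2 and 237 in P4, and 368 in P3 and 375 in P5. Single mural genes differed in direction, *Pdgfrb* being higher and *Myh11* lower in the CD105+ library. The part of these transcripts was not tested.

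*Gapdh* itself was higher in the CD105- libraries, at 302 FPKM in P4 and 326 in P5 against 218 in P2 and 224 in P3. Division by *Gapdh* therefore moved the median log2 ratio of all genes by 0.47 in P2/P4 and by 0.53 in P3/P5. It raised the share of calls higher in the CD105+ library from 39.1% to 67.6% of all calls in P2/P4 and from 53.7% to 80.9% in P3/P5. Every gene's ratio in a comparison is multiplied by the same factor, so this division does not alter the order of genes by ratio and could only raise the ratios of *Notch1*, *Notch3* and *Dll4*. *Dll1* was called higher in P4 against that shift (ratio P2/P4 0.388). *Hes1* came to lie on the other side of 1, with ratios of 1.34 for P2/P4 and 1.32 for P3/P5, and the median of ratios gave 1.03 for P2/P4.

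**Figure D3:**
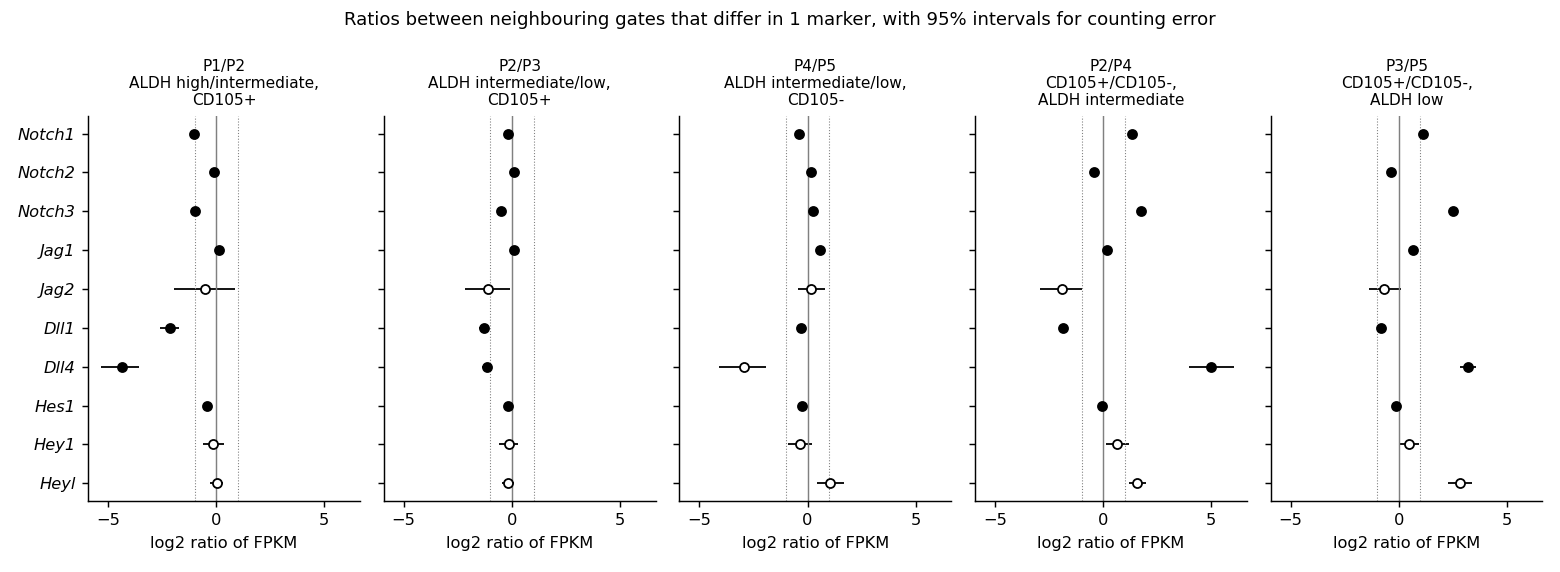
Log2 ratio of FPKM (x axis) of the 10 Notch genes (y axis) in 5 comparisons of neighbouring gates that differ in 1 marker, with bars for the 95% interval of counting error and dotted lines at 2-fold. Filled points are genes with at least 1 FPKM in the higher population, open points are below it. On the scale as deposited, *Dll4* lies farthest from 0 in P1/P2 (-4.38), P2/P4 (4.97) and P3/P5 (3.20), *Notch1* and *Notch3* lie right of the 2-fold line in both CD105 comparisons, and *Dll1* lies left of 0.

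P6, the gate low in CD140a, was compared with each of P1 to P5. *Notch1*, *Notch3* and *Hes1* were at least 2-fold lower in P6 than in each of the 5 other populations, which is 3 of the 5 members that reached 1 FPKM in all of these, where 4.09% of 10828 genes met the rule. None of the 4 members with at least 1 FPKM in P6 was 2-fold above each other population, a rule that 6.91% of 12043 genes met. *Notch1* in P6 stood at 0.234 of its level in P4 (0.204 to 0.268), the next lowest population, *Notch3* at 0.253 of that in P5 (0.197 to 0.325) and *Hes1* at 0.482 of that in P1 (0.437 to 0.531). *Notch2* was higher in P6 without meeting the rule, at 1.42 times its level in P4 (1.38 to 1.46) and 2.06 times that in P1 (2.001 to 2.13). The call of *Hes1* was lost with a common sum of FPKM (ratio P6/P1 0.511), and that of *Notch3* was lost with the median of ratios and after division by *Gapdh*, where its level in P5 came to lie below the minimum. Division by *Gapdh* moved the median log2 ratio of all genes by between -0.33 in P6/P1 and 0.27 in P6/P5, and the median of ratios moved it by -0.16 in P6/P1. *Dll1* in P6 lay above P1 (ratio P6/P1 8.02, 5.98 to 11.1) and P2 (P6/P2 1.82, 1.53 to 2.16) and below P3 (P6/P3 0.738, 0.640 to 0.851), P4 (P6/P4 0.508, 0.443 to 0.581) and P5 (P6/P5 0.416, 0.365 to 0.475). Mesothelial, acinar, adipocyte, endothelial (113 FPKM) and haematopoietic (41.0 FPKM) transcripts were all highest in P6. The fibroblast genes *Dpt* (8.70 FPKM) and *Lum* (6.19 FPKM) were lowest there, whereas *Col1a1* and *Pdpn* were highest. The part of these transcripts in these differences was not tested.

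A list of 47 other genes of the pathway was examined in the same way. Of these, 34 reached 1 FPKM in some population, 30 reached it in all and 13 in none. In all, 5 of the 34 were called in some comparison, where 24.8% of the 12904 genes of that level were. *Dlk1*, a non-canonical ligand known from preadipocytes, had 0.0407, 1.74, 1.61, 0.0865, 0.516 and 1.02 FPKM in P1 to P6, and was called higher in P2 than in P1 and P4 and higher in P3 than in P5. It shared with *Dll4* the high values in P2 and P3 and the low values in P1 and P4, but not the low value in P6. *Dner*, a non-canonical ligand best known from neurons, had 1.01, 1.84, 0.830, 0.119 and 0.0283 FPKM in P1 to P5, is listed at 0 in P6, and was called higher in P2 than in P3 and P4.

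The other called genes are not ligands. *Maml3*, a Mastermind-like coactivator, had 3.71, 4.46, 4.42, 2.22, 1.98 and 0.595 FPKM in P1 to P6, and was called higher in both CD105 comparisons and lower in P6 than in each other population. Its order of high CD105+, lower CD105- and lowest P6 is that of *Notch3*. *Dtx4*, a Deltex ubiquitin ligase, had 12.6, 13.3, 13.6, 7.07, 5.67 and 4.69 FPKM in P1 to P6, and was called in P3 against P5. *Neurl1a*, a ubiquitin ligase of the Neuralized family, had 1.97 FPKM in P6 and at most 0.664 elsewhere, and was the 1 gene of the list called above each other population in P6. For the 31 genes of the list with at least 1 FPKM in both P2 and P4, the median log2 ratio P2/P4 was 0.01.

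*Rbpj*, the DNA-binding partner of all Notch receptors, had 45.8, 30.0, 24.2, 27.9, 18.6 and 16.7 FPKM in P1 to P6. It was thus lower at lower ALDH activity on both sides of the CD105 gate, opposite to *Dll1*, and was highest in P1 under all 4 scalings. No step between neighbouring gates reached 2-fold (ratio P1/P2 1.52, P2/P3 1.24 and P4/P5 1.501). *Numbl*, an adaptor of the Numb family, which antagonizes Notch, had 47.2, 41.3, 34.3, 30.8, 27.0 and 21 FPKM in P1 to P6, in the same order under all 4 scalings. *Lfng*, a Fringe glycosyltransferase that tunes which ligands a receptor answers, had 26.4, 24.5, 20.7, 17.9, 11.8 and 27.4 FPKM in P1 to P6. In P1 to P5 it ran in the same direction as *Jag1*, and P6 was the highest population as deposited and with a common sum, but not with the other 2 scalings.

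Of the 10 protease genes listed, 9 reached 1 FPKM in all populations. The γ-secretase genes *Ncstn* (52.7 to 68.3 FPKM), *Psenen* (62.5 to 78.4 FPKM) and *Aph1a* (30.1 to 37.4 FPKM) varied by 1.24- to 1.29-fold between populations, and *Furin* (16.0 to 29.4 FPKM) and *Adam17* (16.3 to 29.5 FPKM) by 1.83- and 1.81-fold. *Adam10* had 24.0, 24.8, 23.4, 37.2, 34.9 and 33.8 FPKM in P1 to P6, higher in CD105- cells and P6 as deposited, but not in all of these after division by *Gapdh*, which moves all genes alike. Among the nuclear genes, the coactivator *Maml1* lay between 9.42 FPKM in P2 and 10.9 in P5, and *Snw1*, a cofactor of the RBPJ complex, between 24.6 in P1 and 38.5 in P6. Of the 7 other target genes, 6 stayed below 1 FPKM, and the exception, *Hes6*, picked out after its values were seen, lay between 6.40 FPKM in P2 and 8.58 in P6. The 5 called genes of the list were 2 non-canonical ligands, 2 ubiquitin ligases and 1 coactivator.

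**Figure D4:**
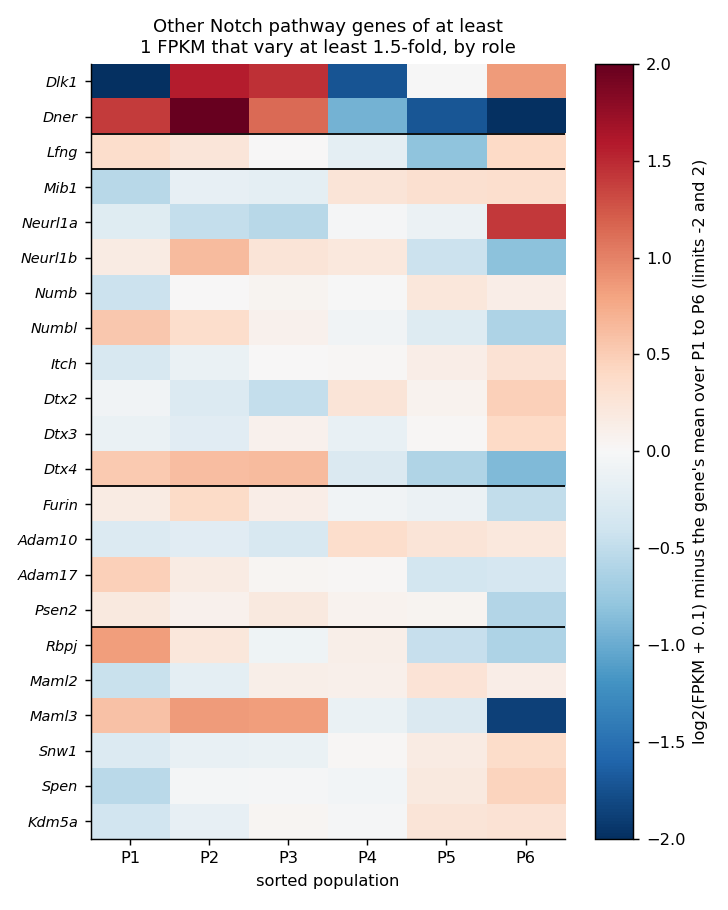
Levels of the 22 other Notch pathway genes that reach 1 FPKM in some population and whose highest level is at least 1.5 times the lowest (grouped by role, from top to bottom) in the 6 sorted populations (columns), as log2(FPKM + 0.1) minus the gene's mean over P1 to P6. Colours are limited at -2 and 2. *Dlk1*, *Dner* and *Maml3* vary most, and *Rbpj* is highest in P1 at 45.8 FPKM.

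The genes with the most alike pattern were found for each member by the root mean square (RMS) difference of log2(FPKM + 0.1) over the 6 populations, after each gene's mean was subtracted, among all genes with at least 1 FPKM in some population. *Notch1* was followed most closely by the protocadherins *Pcdhb9* (RMS 0.147) and *Pcdhb7* (0.158) and by *Flrt3* (0.224). *Pcdhb9* had 2.55, 4.47, 4.88, 1.53, 2.43 and 0.303 FPKM in P1 to P6, with the same order of populations but for P1 and P5. *Notch3* had *Gm6249* (0.170), *Camk1g* (0.220) and *Pcdh12* (0.230) nearest to it, and *Notch2* had *P4htm* (0.0430), *Ptms* (0.0431) and *Arhgap17* (0.0541). The small values for *Notch2* go with its small spread, which was 0.365 about its own mean against 1.33 for *Notch3*.

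For the ligands, *Spire1* (0.0526), *Cpd* (0.0621) and *Prrg2* (0.0714) were nearest to *Jag1*, and *Nqo1* (0.0772), *Crlf2* (0.0794) and *Hist2h2ab* (0.0886) to *Jag2*. *Etl4* (0.193) was nearest to *Dll1*, with 0.143, 0.548, 1.64, 2.02, 3.21 and 1.47 FPKM in P1 to P6, followed by *H2-Q9* (0.313) and *Ucp2* (0.326). *Dll4* had its nearest genes farther away, with *Ngp* at 0.272, *Grem1*, a secreted BMP antagonist, at 0.322 and *Kirrel3* at 0.470. *Ngp* had 0.0195, 0.607, 2.13 and 0.303 FPKM in P1, P2, P3 and P5 and is listed at 0 in P4 and P6. *Grem1* had 0.766 FPKM in P2 and 1.16 in P3 and at most 0.113 in the other libraries, so it shared the high values in P2 and P3. *Plekhg1* (0.108) and *Pcdhb14* (0.116) were among the genes nearest to *Hes1*, and *Qprt* (0.0762) and *Fgl2* (0.114) among those nearest to *Heyl*. *Hey1* was followed by *Galnt7* (0.0554), *Adat3* (0.0742) and *2210404J11Rik* (0.0816). Among the members themselves, *Notch2* and *Jag2* were the closest pair (0.274), followed by *Jag1* and *Hey1* (0.285) and by *Notch1* and *Notch3* (0.408), although *Jag2* and *Hey1* are flattened on this scale by their low FPKM. *Dll1* and *Heyl* (2.06), *Dll1* and *Notch3* (2.05) and *Dll1* and *Dll4* (2.01) were the most unlike pairs.

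**Figure D5:**
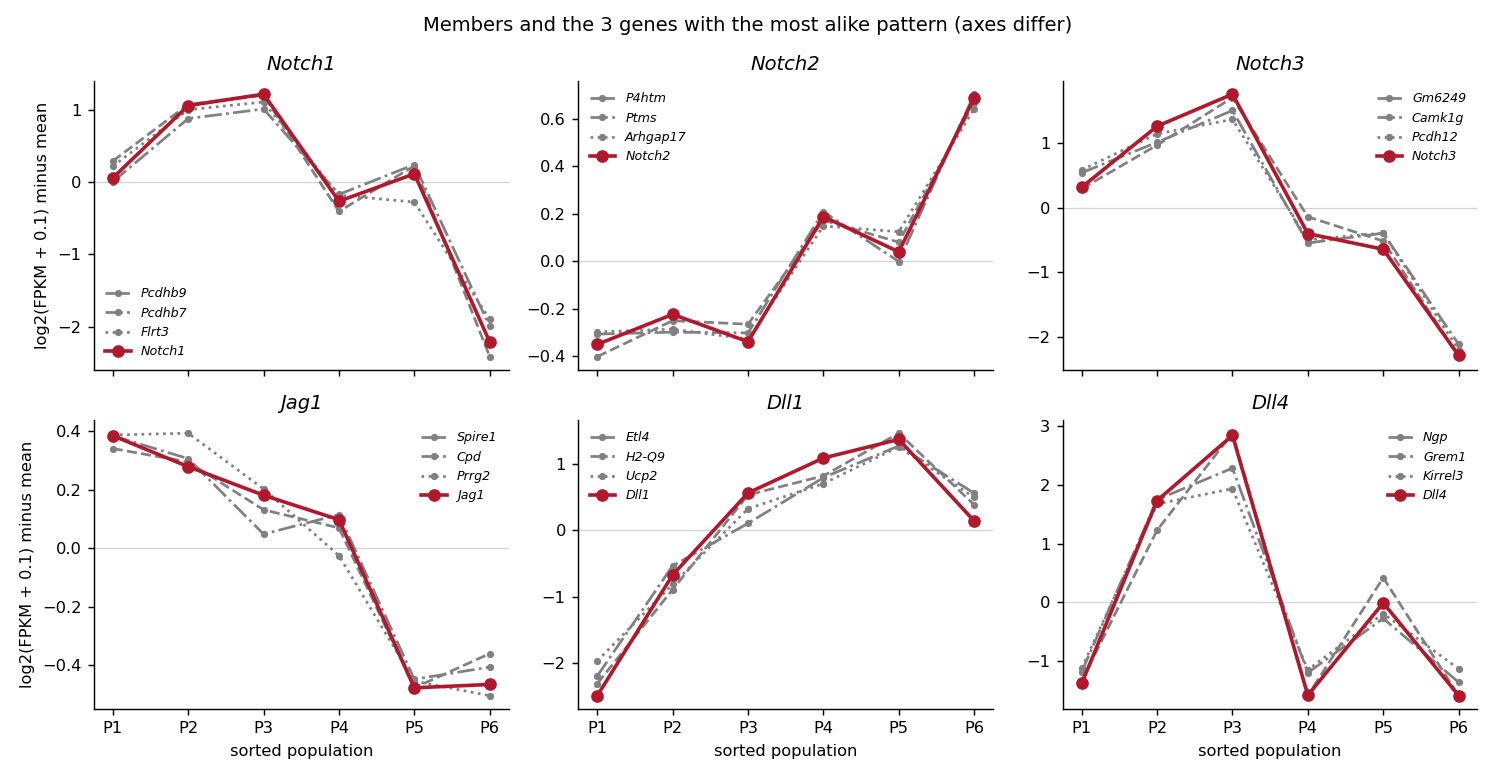
Log2(FPKM + 0.1) minus the gene's mean over P1 to P6 (y axis, with a range of its own in each panel) in the 6 sorted populations (x axis) for *Notch1*, *Notch2*, *Notch3*, *Jag1*, *Dll1* and *Dll4* (red) and the 3 genes with the most alike pattern for each (grey). The nearest gene lies at an RMS difference of 0.0430 from *Notch2* and of 0.272 from *Dll4*.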

How the data were processed

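RNA-seq values of 6 sorted populations, 1 library each, were analyzed. The authors deposited FPKM values per gene symbol. The submitters' processing notes name TopHat2 2.0.7, Cufflinks 2.1.1 and mm10, and the annotation and any strand setting are not given in the sources used here. Of 23847 rows per library, 495 repeated a symbol and were summed, which left 23352 genes, and no further scaling was applied.

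The members and all gene lists were chosen with earlier results of these data known. Depth was estimated from the steps between low FPKM values of 3258 genes with a single GENCODE M21 transcript of at least 800 nt, with an assumed fragment of 200 nt. Of the values of up to 10 reads tested, from 53.9% to 59.1% in a library came within 0.05 of an integer, so reads are estimates and no count test was run. Reads per gene used the principal transcript, and 95% intervals of ratios are exact binomial (Clopper-Pearson) intervals. Ratios and calls were computed without a pseudocount, and medians and pattern distances with 0.1. Genes named are the members, the 3 genes with the nearest pattern for each, and genes drawn from those other pathway genes called in a comparison or of at least 10 FPKM in some population, up to 25. Markers of the gates and of other cell types are also named, and *Notch4*, *Dll3* and *Gapdh* are named outside that rule. So are *Hes3*, *Hes6*, *Nrarp* and the overlapping noncoding genes, which were picked after their values or positions were seen. *Muc16* and *Adgre1* were not found under these symbols. Of the genes with the nearest pattern and the other pathway genes, 3 are not reported here. The 1.5-fold minimum of the pathway figure and the limit of medians to genes of at least 1 FPKM in both populations were set after the values were seen.

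Alternatives were another minimum FPKM, fold threshold, scaling between libraries, pseudocount and treatment of repeated symbols, and leaving out each of P1 to P5 from the comparison with P6. Software was matplotlib 3.10.9, scipy 1.17.1, numpy 2.4.6 and pandas 2.3.3 under Python 3.11.15, and the procedures were tested on simulated data. Promoter sequences are from RefSeq (GRCm38.p6), and gene positions are from GENCODE M21.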

Additional observations from a re-analysis of the deposited data

Results flagged for a closer look

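*Notch3* was the 1 member whose ratio of intermediate to low ALDH activity lay on opposite sides of 1 in CD105+ and CD105- cells, with both intervals for counting error clear of 1. The log2 ratio was -0.51 for P2/P3 (-0.59 to -0.42) and 0.26 for P4/P5 (0.09 to 0.44), so that the CD105+ value lay -0.77 from the CD105- value. Each population has 1 library, and the difference was not tested.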

How the results depend on the processing

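Of 80 counts of called members recomputed under an alternative, 69 were within 1.5 times the count reported and 11 were not, and the cause was not tested except where the setting itself changes which genes can be called. With a minimum of 0.1 FPKM, 2 members were called in P4 against P5 (*Dll4* and *Heyl*) in place of 0. A minimum of 5 FPKM leaves fewer genes to call and gave 1 member in P1 against P2, 0 in P2 against P3, 1 in P2 against P4 and 1 (*Hes1*) below each other population in P6. A threshold of 1.5-fold gave 5 members in P3 against P5, and a threshold of 3-fold gave 0 in P2 against P3. Division by *Gapdh* gave 5 members in P3 against P5 (*Jag1* and *Heyl* were added). A pseudocount of 1, which pulls low values together, gave 1 member in P1 against P2 (*Dll4*), 0 in P2 against P3 and 1 (*Notch1*) below each other population in P6. Leaving out P1, P2, P3, P4 or P5 from the comparison with P6 gave 0 members above and 3 below in every case.

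Of 300 log2 ratios of members recomputed under another scaling, pseudocount or treatment of repeated symbols, 244 stayed within their counting interval, 56 did not, no called ratio changed sign, and 6 uncalled ratios did. These were *Notch2* and *Hes1* in P2/P4 (0.06 and 0.43) and in P3/P5 (0.16 and 0.40) after division by *Gapdh*, *Hes1* in P2/P4 with the median of ratios (0.04) and *Heyl* in P1/P2 with a common sum of FPKM (-0.02). The 56 included *Dll4* with a pseudocount of 0.1 or 1. In P2/P4 it had 3.32 and 1.15 in place of 4.97, and in P1/P2 -3.12 and -1.13 in place of -4.38. No paired analysis was possible because there was only 1 library of each sorted population. Depth limits *Jag2*, with at most 46 estimated reads in a library, and *Dll4* in P1, P4 and P6, whose levels could not be told apart.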
